A study of Mus musculus with 89 samples.

Results

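The genes described here encode the machinery that writes and erases N6-methyladenosine (m6A), the commonest internal mark of messenger RNA. They are the rows of an RNA-seq count table whose symbol is one of 7 writer complex genes (Wtap, Mettl3, Mettl14, Zc3h13, Rbm15, Rbm15b and Cbll1) or 2 eraser genes (Alkbh5 and Fto), 9 of 26276 named rows, and all 9 were found. They were chosen by the CPM of Wtap in dTAG replicate 1, which was low, so the values of that library by itself are given as a description with no test. The fit over all 6 libraries holds that library too and is used to support nothing. The question asked is whether its partners stood low in that library too.

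The study followed depletion of the histone variant H2A.Z.1 in V6.5 cells, a mouse embryonic stem cell line, and 83 of its 89 samples, from other assays, are not analysed here. All 6 RNA libraries came from V6.5 cells of the genotype H2afz-FKBP-V, in which H2afz, the gene of H2A.Z.1, carries a degron tag, grown with LIF and inhibitors of MEK and GSK3. The 3 dTAG libraries carry the name of the degrader, a molecule that directs a tagged protein to the proteasome, and the 3 control libraries share the tagged allele. The length of treatment and whether the line was a single clone are not given for these samples, and nothing says that the libraries came from separate cultures, so the p-values below measure the spread between these libraries, which may be technical.

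Background helps to order the genes. Mettl3 carries the catalytic site and Mettl14 holds the RNA beside it. Wtap binds this pair and keeps it in nuclear speckles, and Zc3h13, Virma and the ubiquitin ligase Cbll1 (Hakai) are further parts of the complex. Rbm15 and its paralogue Rbm15b bind RNA and bring the complex to its sites. Alkbh5 and Fto are oxygenases that remove the methyl group. In mouse embryonic stem cells the mark is known for shortening the life of transcripts that hold the cells in the naive state.

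The libraries were of unequal depth and makeup. Named rows held 12907095, 2131648 and 1812405 counts in dTAG replicates 1, 2 and 3, against 14091745 to 15652795 in the controls. Values below are CPM, counts per 1000000 counts in named rows. Of 1462 rows for olfactory and vomeronasal receptors, sensory genes foreign to stem cells, 23.5%, 71.5% and 97.0% had a count in dTAG replicates 1, 2 and 3, against 10.9% to 18.2% in the controls. The 8 embryonic stem cell markers summed to 2585, 1537 and 470 CPM in dTAG replicates 1, 2 and 3, against 2334 to 2459 CPM in the controls. Markers of other lineages (10 genes) summed to 91.6, 273 and 606 CPM in dTAG replicates 1, 2 and 3, against 61.5 to 98.5 CPM in the controls. Krt18 alone gave 66.8 CPM of the sum in dTAG replicate 1. Of the 10 genes, 5 were above every control there and 2 below. Of genes whose control mean was 10 CPM or more, 28.8% were above and 18.3% below. The 6 feeder fibroblast markers summed to 31.3, 109 and 336 CPM in dTAG replicates 1, 2 and 3, against 23.6 to 39.6 CPM in the controls, with Col3a1 at 0 in dTAG replicate 1 and in every control. The part of these differences in the values of the dTAG libraries, above all of dTAG replicates 2 and 3, was not tested. Each result is therefore given library by library. In bulk RNA, fewer cells of a type and less RNA per cell cannot be told apart.

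Wtap was lower in every dTAG library than in every control. It had 1906, 976 and 195 CPM in dTAG replicates 1, 2 and 3, against 2954, 2816 and 2749 CPM in control replicates 1, 2 and 3. The controls lay close together, at 2840 ± 104 CPM (SD, n = 3), and dTAG replicate 1 was 32.9% below their mean. The exact Poisson 95% interval of the count in dTAG replicate 1 ran from 1882 to 1930 CPM, which covers counting error and not the spread between libraries. As log2 ratios of CPM + 1 to the control mean, the values were -0.57, -1.54 and -3.86 in dTAG replicates 1, 2 and 3. A place below every control was usual for RNAs this abundant in dTAG replicates 2 and 3. Of 202 genes whose control mean was 500 CPM or more, 12, 200 and 202 were so placed in dTAG replicates 1, 2 and 3. Wtap is the only member in that class, whose limit was chosen after the values were seen.

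**Figure D1:**
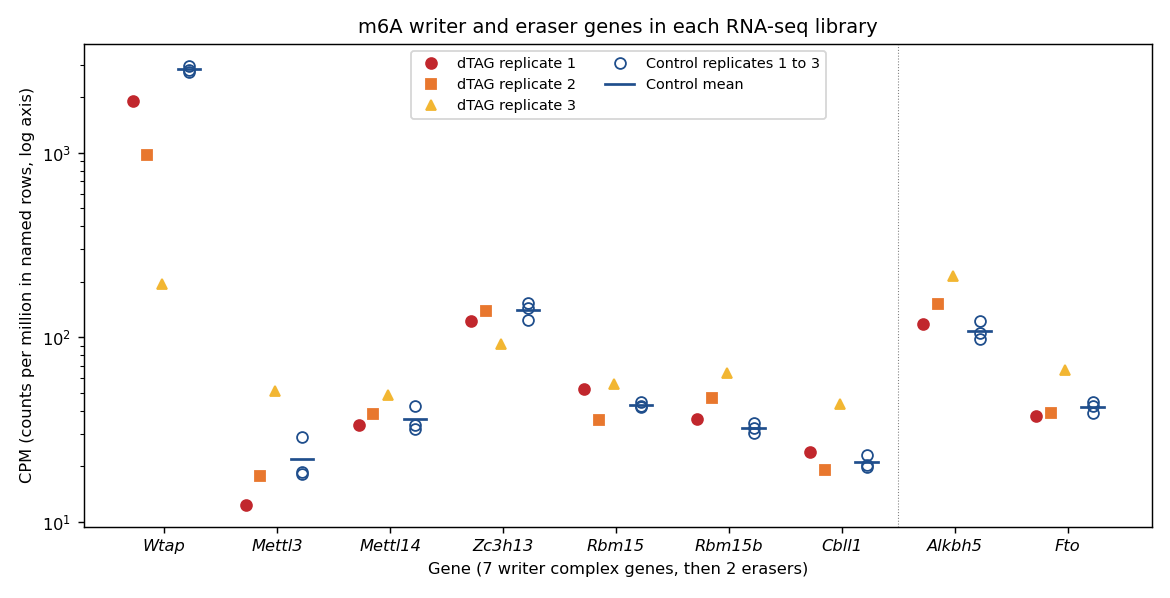
CPM on a log axis of the 9 m6A genes in each library, with the dTAG libraries as filled symbols and the 3 controls as open circles beside their mean (line). Wtap, at 2840 CPM in the controls, has all 3 dTAG libraries below all 3 controls, a pattern none of the other 8 genes shows. The other 8 are far less abundant. Of 202 genes at 500 CPM or more in the controls, 200 and 202 were below every control in dTAG replicates 2 and 3.

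Wtap gave far more counts than its partners. It took 0.191%, 0.0976% and 0.0195% of the counts in dTAG replicates 1, 2 and 3, against 0.275% to 0.295% in the controls. By counts it ranked 24, 35 and 353 of 26276 rows in dTAG replicates 1, 2 and 3, against 17 to 18 in the controls. For each count of the 6 partners together there were 6.76, 3.29 and 0.548 counts of Wtap in dTAG replicates 1, 2 and 3, against 9.08 to 10.4 in the controls. No lengths of the counted exons were at hand, so these are ratios of counts and not of transcripts.

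The Wtap row lies at chr17:12966799-12992543 (GRCm38.p6, the assembly of the RefSeq gene table used for positions), and no other gene in that table overlaps it. The windows below run from 250 bases before to 50 bases after a RefSeq start and are shown for Wtap and Mettl3, the pair that stood lowest in dTAG replicate 1, and for Rbm15, a partner that stood above every control there. They lie at chr17:12992494-12992793, chr14:52305075-52305374 and chr3:107333240-107333539, all on the minus strand. The Wtap window is 1 of 3 in the table for that gene. Capitals mark matches on either strand to 4 motifs, which are TATAAA (the TATA box), CCAAT (the site of NF-Y), GGGCGG (the GC box) and CCGGAAGT (an ETS site).
Wtap: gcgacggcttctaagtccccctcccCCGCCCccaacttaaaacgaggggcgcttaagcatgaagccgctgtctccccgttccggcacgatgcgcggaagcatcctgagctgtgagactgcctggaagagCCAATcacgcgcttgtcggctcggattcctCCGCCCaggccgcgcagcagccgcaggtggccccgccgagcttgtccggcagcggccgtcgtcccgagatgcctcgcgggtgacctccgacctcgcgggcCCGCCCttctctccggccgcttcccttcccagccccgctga
Mettl3: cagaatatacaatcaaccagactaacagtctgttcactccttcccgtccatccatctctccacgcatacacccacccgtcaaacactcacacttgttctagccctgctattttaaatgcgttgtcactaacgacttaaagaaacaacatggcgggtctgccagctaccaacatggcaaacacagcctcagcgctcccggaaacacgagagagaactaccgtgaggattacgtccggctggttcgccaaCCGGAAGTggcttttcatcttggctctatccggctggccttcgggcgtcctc
Rbm15: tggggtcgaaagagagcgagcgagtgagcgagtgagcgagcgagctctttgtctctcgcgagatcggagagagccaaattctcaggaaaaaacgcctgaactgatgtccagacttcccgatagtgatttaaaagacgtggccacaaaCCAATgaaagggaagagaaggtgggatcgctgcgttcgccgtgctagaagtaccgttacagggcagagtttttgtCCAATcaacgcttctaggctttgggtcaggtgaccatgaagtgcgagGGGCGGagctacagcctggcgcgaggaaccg
The Wtap window held 35 CpG dinucleotides, the Mettl3 window 17 and the Rbm15 window 23, against a median of 7 over 32817 windows of the same length. Wtap had 3 matches to GGGCGG and 1 to CCAAT, Mettl3 had 1 to CCGGAAGT, and Rbm15 had 2 to CCAAT and 1 to GGGCGG, none overlapping another. These motifs occur in 35.6% (GGGCGG), 37.4% (CCAAT) and 3.89% (CCGGAAGT) of all windows, and TATAAA (13.6%) had no match in the 3 shown. A match describes the letters only.

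Mettl3, the catalytic subunit, was the partner that stood lowest with Wtap in dTAG replicate 1. It had 12.4, 17.8 and 51.3 CPM in dTAG replicates 1, 2 and 3, against 28.9, 18.1 and 18.6 CPM in the controls. Its log2 ratio of CPM + 1 in dTAG replicate 1 was -0.77, below the -0.57 of Wtap. Without control replicate 1, the highest control of Mettl3, its ratio would not be below that of Wtap. Mettl3 rests on far fewer counts: 160 in dTAG replicate 1, with a Poisson 95% interval of 10.5 to 14.5 CPM. Its controls were also less alike, with an SD of 27.7% of their mean against 3.68% for Wtap. In dTAG replicate 2 Mettl3 was below its lowest control by less than its counting error (12.6 to 24.5 CPM), and in dTAG replicate 3 it was above all controls, unlike Wtap.

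Mettl3 lies at chr14:52294841-52308741 and shares part of its span with Tox4, and whether counting used the strand is not given. Tox4 had 32.7, 50.7 and 60.1 CPM in dTAG replicates 1, 2 and 3, against 26.7 to 39.7 CPM in the controls. Tox4 was within its control range in dTAG replicate 1 and above it in dTAG replicates 2 and 3, and reads shared between the genes were not tested.

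Mettl14 (chr3:123368295-123385990), the RNA-holding partner of Mettl3, did not follow it. It had 33.5, 38.5 and 48.6 CPM in dTAG replicates 1, 2 and 3, against 33.6, 31.9 and 42.4 CPM in the controls. dTAG replicates 1 and 2 lay within the control range and dTAG replicate 3 above it.

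Zc3h13 (chr14:75284306-75344433), which holds the complex in the nucleus, had 123, 139 and 91.6 CPM in dTAG replicates 1, 2 and 3, against 154, 125 and 144 CPM in the controls. The value in dTAG replicate 1 was under the lowest control by less than its counting error, with a Poisson interval of 117 to 129 CPM. Zc3h13 was the other member lower than every control in dTAG replicate 3.

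The RNA-binding paralogues stood the other way in dTAG replicate 1. Rbm15 had 52.8, 35.7 and 56.3 CPM in dTAG replicates 1, 2 and 3, against 42.4, 42.2 and 44.8 CPM in the controls. Rbm15 was thus above every control in dTAG replicates 1 and 3 and below every control in dTAG replicate 2, where its Poisson interval, 28.1 to 44.6 CPM, reaches into the control range. Rbm15b had 35.9, 46.9 and 64.0 CPM in dTAG replicates 1, 2 and 3, against 34.5, 30.4 and 32.4 CPM in the controls, above every control in all dTAG libraries. In dTAG replicate 1 that margin was less than the counting error of Rbm15b (32.8 to 39.4 CPM). Rbm15 lies at chr3:107305511-107334460 and Rbm15b at chr9:106880928-106887075. Rbm15b overlaps Dcaf1, which had 106, 74.6 and 55.7 CPM in dTAG replicates 1, 2 and 3, against 99.4 to 108 CPM in the controls. Rbm15 overlaps Slc16a4, which had 0.465, 0.938 and 14.3 CPM in dTAG replicates 1, 2 and 3, against at most 0.568 CPM in the controls.

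Cbll1 (chr12:31484829-31500676), the Hakai subunit, had 24.0, 19.2 and 43.6 CPM in dTAG replicates 1, 2 and 3, against 19.9, 23.1 and 20.3 CPM in the controls. It lay just above the controls in dTAG replicate 1 and just below them in dTAG replicate 2. The Poisson intervals of these counts, 21.4 to 26.8 CPM and 13.8 to 26.1 CPM, reach into the control range.

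The erasers were not shifted together in dTAG replicate 1. Alkbh5 had 118, 151 and 215 CPM in dTAG replicates 1, 2 and 3, against 122, 98.0 and 106 CPM in the controls. Fto had 37.7, 38.9 and 66.2 CPM in dTAG replicates 1, 2 and 3, against 42.6, 44.7 and 38.9 CPM in the controls. Alkbh5 lies at chr11:60537683-60558512 and Fto at chr8:91313367-91668433. Alkbh5 lay inside the control range in dTAG replicate 1, and Fto lay under it by less than its counting error (34.4 to 41.2 CPM). Fto overlaps 4831440D22Rik, which had 0.465, 4.69 and 34.8 CPM in dTAG replicates 1, 2 and 3, against 0.319 to 1.49 CPM in the controls.

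**Figure D2:**
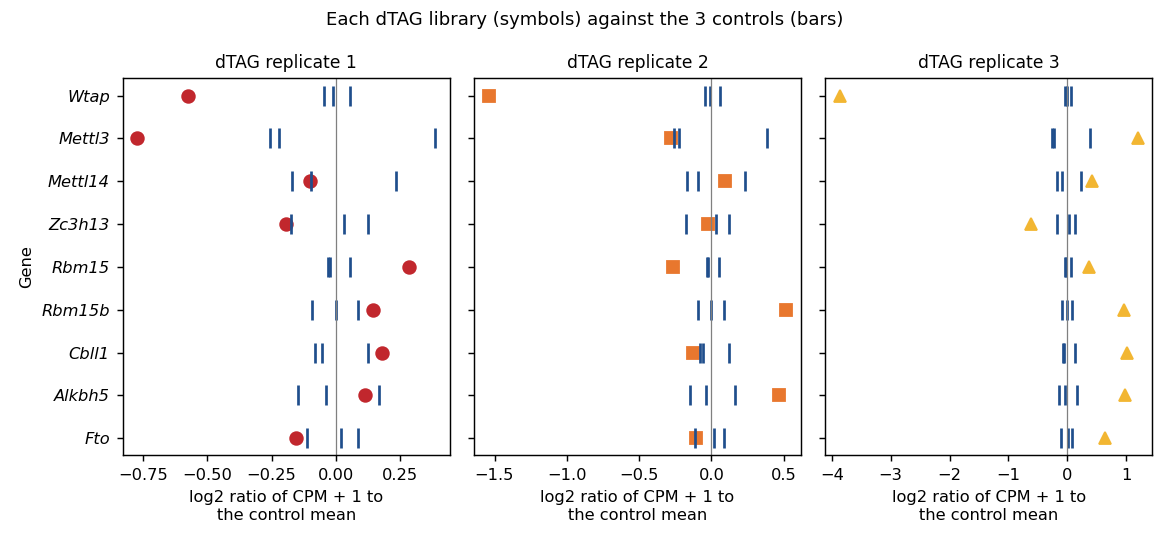
Log2 ratio of CPM + 1 to the control mean for each m6A gene in dTAG replicates 1, 2 and 3 (symbols), with the 3 controls as bars; each panel has its own x axis. In dTAG replicate 1 the values run from -0.77 for Mettl3 to 0.28 for Rbm15, and Wtap is the gene left of its controls in every panel.

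Set side by side, the low value of Wtap in dTAG replicate 1 was not shared by its partners as a group. The median log2 ratio of the 8 other genes was 0.01 in that library, against 0.03 over the 8876 genes whose control mean was 10 CPM or more, a class that holds all 9 members. In CPM, 3 of the 8 lay below every control (Mettl3, Zc3h13 and Fto) and 3 above (Rbm15, Rbm15b and Cbll1). Over the 8876 genes, 18.3% lay below every control in dTAG replicate 1 and 28.8% above. Since this library chose the set, the counts are descriptions. They also depend on the scale. Dividing CPM by the TMM factors (1.04 in dTAG replicate 1, 0.955 to 1.03 in the controls) puts Mettl14 below every control too and Cbll1 within. The shares over the 8876 genes were not counted on that scale. By over 1.5-fold and below every control, Mettl3 was the one gene of the 8, and 1.98% of the 8876 were so placed. That margin rests on control replicate 1 (28.9 CPM, against 18.1 and 18.6 CPM in control replicates 2 and 3). Without it Mettl3 falls short of 1.5-fold. Above every control by over 1.5-fold were 0 of the 8, against 1.26%. Wtap itself, at 0.671 of the control mean, was just short of 1.5-fold.

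In dTAG replicate 2, the 9 genes had 4 below every control (Wtap, Mettl3, Rbm15 and Cbll1) and 2 above (Rbm15b and Alkbh5), against 41.4% below and 38.4% above of the 8876. In dTAG replicate 3, Wtap and Zc3h13 were below every control and the other 7 above, against 42.7% below and 49.1% above. In dTAG replicate 2 the 8 other genes had a median of -0.07, against -0.04 over the 8876. Their median in dTAG replicate 3 was 0.80, against 0.13 over the 8876.

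As a share of the counts of the 7 writer genes, which does not depend on library scaling, Wtap made up 87.1%, 76.7% and 35.4% in dTAG replicates 1, 2 and 3, against 90.4%, 91.2% and 90.1% in control replicates 1, 2 and 3. The Wilson 95% interval in dTAG replicate 1 was 86.7% to 87.5%; it covers counting error only. Since the count of Wtap that chose the genes enters this share, its low value in dTAG replicate 1 is a description. The share sets an abundant gene against partners of lower level, and the 2 levels shifted unlike each other. Genes at 500 CPM or more in the controls had median log2 ratios of -0.57 and -4.41 in dTAG replicates 2 and 3. Over the 8876 genes the medians were -0.04 and 0.13. The part of this difference in the share was not tested. The 6 partners summed to 282, 297 and 355 CPM in dTAG replicates 1, 2 and 3, against 271 to 313 CPM in the controls. In CPM the smaller share in dTAG replicates 1 and 2 thus came with a partner sum inside the control range. Unlike the share, this sum depends on library scaling. TMM factors computed with dTAG replicate 1 and the controls were 1.04 in that library, against 0.955 to 1.03 in the controls. Computed over all 6 libraries, they were 1.23 in dTAG replicate 2, against 0.742 to 0.805 in the controls. Divided by these factors, both sums lie below every control.

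**Figure D3:**
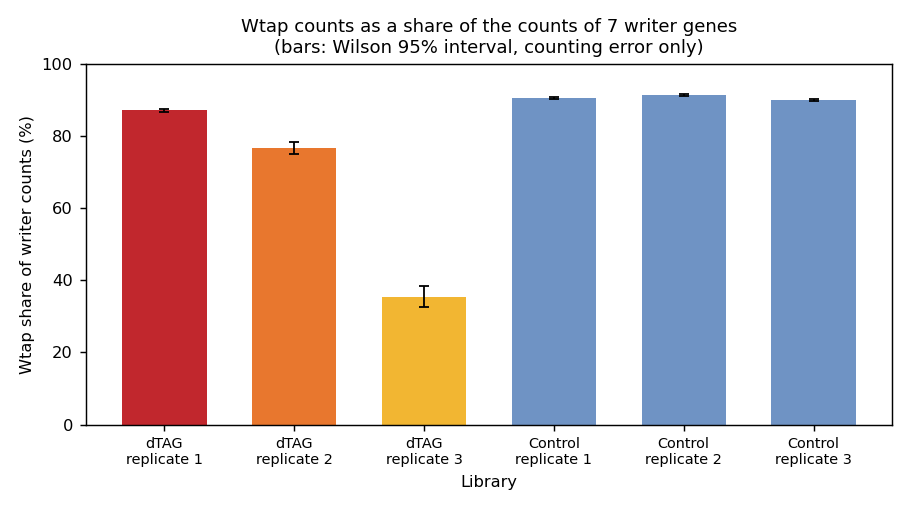
Wtap counts as a percentage of the counts of the 7 writer genes in each library, on an axis from 0 to 100, with Wilson 95% intervals as error bars. The 3 dTAG libraries, at 87.1%, 76.7% and 35.4%, are all below the 3 controls, at 90.1% to 91.2%.

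In dTAG replicate 2, whose values did not enter the rule that chose the genes, Wtap was again low among abundant RNAs. The genes were chosen with earlier results of these data known, so this is a description and not an independent repeat. Of 202 genes whose control mean was 500 CPM or more, Wtap had the lowest log2 ratio in dTAG replicate 1 and the third lowest in dTAG replicate 2. The median of these genes in dTAG replicate 2 was -0.57, so Wtap stood 0.96 below it on the log2 scale. The genes still lower there were Cited2, a transcriptional coregulator, at 133 CPM in dTAG replicate 2 against 2461 to 3060 CPM in the controls, and Ube3c, a ubiquitin ligase, at 86.3 CPM against 546 to 656 CPM in the controls. Next to Wtap in dTAG replicate 1 came Lars2, at 4468 CPM against 3746 to 6328 CPM in the controls, which lay within its control range. In dTAG replicate 3 the same 202 genes had a median of -4.41, and Wtap, at -3.86, was above it, at place 134 from the lowest. With at least 100 CPM as the limit instead, Wtap was at place 3 of 1522 genes in dTAG replicate 1 and at place 34 in dTAG replicate 2. Both level limits were chosen after the values were seen, each dTAG library is a single value, and no test was made.

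**Figure D4:**
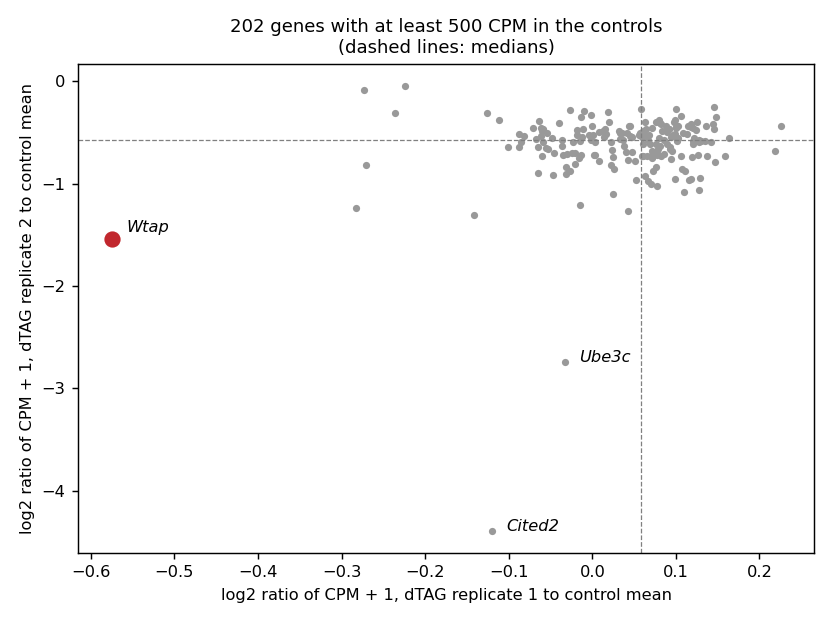
Log2 ratios of CPM + 1 to the control mean for the 202 genes whose control mean was 500 CPM or more, dTAG replicate 1 (x) against dTAG replicate 2 (y), with medians of 0.06 and -0.57 as dashed lines. Both axes share the same controls, so only the place of single genes is read: Wtap is farthest left, and Cited2 and Ube3c are below it.

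The 5 genes picked as nearest to Wtap over the 6 libraries did not share its level in dTAG replicate 1. Likeness was the Euclidean distance between the log2 ratios of CPM + 1 to the control mean, over 8875 other genes. The distance included dTAG replicate 1. Names of Gm or LOC with digits and names ending in Rik were then left out, so a gene left out may lie nearer. Nearest of the rest were the ribosomal protein genes and relatives Rpl32l, Rps15a-ps6 and Rps4x and the small nucleolar RNAs Snord12 and Snora41, at distances of 0.578 to 0.692. In dTAG replicate 1 their log2 ratios were -0.04 (Rpl32l), -0.20 (Snord12), -0.14 (Rps15a-ps6), -0.24 (Snora41) and -0.05 (Rps4x), against -0.57 for Wtap. In that library the 5 genes thus stood apart from Wtap. Snora41 and Snord12 had 0 and 1.10 CPM in dTAG replicate 3, under the 1.66 CPM limit that a count of 0 sets there. Their likeness to Wtap in dTAG replicate 3 thus rests on the 1 CPM added to each value.

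The genes beside Wtap on chromosome 17 were not low in dTAG replicate 1. Sod2, the mitochondrial superoxide dismutase, had 140, 133 and 118 CPM in dTAG replicates 1, 2 and 3, against 115 to 134 CPM in the controls. Acat2, a thiolase on the other side, had 54.2, 35.7 and 40.8 CPM in dTAG replicates 1, 2 and 3, against 47.1 to 48.1 CPM in the controls. Both were above every control in dTAG replicate 1. Acat3 (24.3 CPM, against 16.5 to 24.3 CPM) and the pseudogene Gm15946 (11.1 CPM, against 9.84 to 14.3 CPM) were within their control range there, and Gpr31b and Tcp10b were at 0 and 1.94 CPM in dTAG replicate 1, against at most 0.0639 and 2.67 CPM in the controls.

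Over all 6 libraries, dTAG against control, no m6A gene passed the test. Of 18116 genes tested with edgeR's quasi-likelihood test at an adjusted p under 0.05, 0% were called higher and 0% lower, so the 0 of 9 is no result about these genes; 4202 genes but 0 members had an unadjusted p under 0.05, and DESeq2 also called 0 of the 9, against 22.9% higher and 0.0706% lower of all genes it tested. The log2 fold change of Wtap was -1.76 (SE 1.83). The fold change of Mettl3 was -0.70 (SE 0.35). These values include the library that chose the genes. The median over the 8 other genes was -0.53, against 0.16 over all genes tested and -0.60 over those at 10 CPM or more. All 9 fold changes were below 0 with TMM scaling, but with library totals alone 7 of the 9 were above 0, Wtap and Zc3h13 excepted.

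With dTAG replicate 1 left out, dTAG replicates 2 and 3 were set against the 3 controls. Here 5 members were called lower (Mettl3, Mettl14, Rbm15, Cbll1 and Fto) and 0 higher. Over all 22093 genes tested 19.8% were lower and 40% higher, and of the 8876 genes at 10 CPM or more 46.7% were lower and 3.4% higher. A count of 5 of 9 is near the share of genes of such a level. The log2 fold changes of the 5 ran from -1.35 for Rbm15 (SE 0.40, edgeR adjusted p = 0.0142) to -0.90 for Mettl3 (SE 0.34, edgeR adjusted p = 0.0379). Wtap had the largest fold change of the 9, -3.29, but its 2 dTAG libraries lay far apart (SE 2.71, edgeR adjusted p = 0.296). In CPM, each of the 5 called genes was above every control in dTAG replicate 3. In dTAG replicate 2, Mettl14 was above its control mean and the other called genes were below theirs. The 5 calls ended with library totals as the scale (0 members called). They also depended on single libraries, with 2, 0 and 0 members called without control replicates 1, 2 and 3, 8 without dTAG replicate 2 and 7 without dTAG replicate 3. The last pair leaves a single dTAG library, assumed to vary like the controls.

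Genes related to the m6A machinery by function, family or methyl supply showed 0 calls over the 6 libraries (36 genes in 4 lists, against 0% of all genes). The lists were chosen with earlier results known, and not all of their genes act on m6A of messenger RNA. Beyond the 9 members, none of them differed by over 1.5-fold from the control mean while lying outside the control range in dTAG replicate 1.

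Of 7 further methyltransferase genes, 1 was below every control in dTAG replicate 1 (Pcif1, which methylates the cap-adjacent adenosine) and 1 above (Mettl16, which methylates the U6 snRNA and Mat2a), against 18.3% below and 28.8% above of the 8876 genes. Virma, the scaffold of the writer complex, had 61.2, 70.8 and 71.7 CPM in dTAG replicates 1, 2 and 3, against 59.8 to 69.3 CPM in the controls. Virma was thus within the control range in dTAG replicate 1. Mettl16 had 48.3, 33.3 and 30.9 CPM in dTAG replicates 1, 2 and 3, against 36.2 to 40.0 CPM in the controls.

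Of 16 readers and binding proteins, 6 were above every control in dTAG replicate 1 and 1, Rbmx, below, against 28.8% above and 18.3% below of the 8876 genes. Hnrnpa2b1, a nuclear RNA-binding protein, had 614, 418 and 46.9 CPM in dTAG replicates 1, 2 and 3, against 595 to 755 CPM in the controls. Igf2bp1, which stabilises marked transcripts, had 403, 286 and 117 CPM in dTAG replicates 1, 2 and 3, against 368 to 429 CPM in the controls. Ythdf1, a cytoplasmic reader named here after its values were seen, stood highest in dTAG replicate 1, at 75.3 CPM against 47.3 to 63.6 CPM in the controls, a log2 ratio of 0.50.

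Of 7 other AlkB family genes 3 were below every control in dTAG replicate 1 and 1 above, and of 6 genes of S-adenosylmethionine supply 2 were below and 0 above, with the same 18.3% below and 28.8% above of the 8876 genes. Alkbh1 had 20.8 CPM in dTAG replicate 1, against 19.2 to 22.2 CPM in the controls, and Alkbh7 had 13.2 CPM, against 14.4 to 20.4 CPM. Mat2a, which makes the methyl donor, had 153, 114 and 53.0 CPM in dTAG replicates 1, 2 and 3, against 150 to 182 CPM in the controls, and Ahcy, which clears its product, had 104, 74.1 and 35.3 CPM, against 115 to 127 CPM. Without dTAG replicate 1, the fit called 3 of the 7 methyltransferases, 6 of the 16 readers, 4 of the 7 AlkB genes and 5 of the 6 supply genes lower and none higher, beside the 46.7% above.

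**Figure D5:**
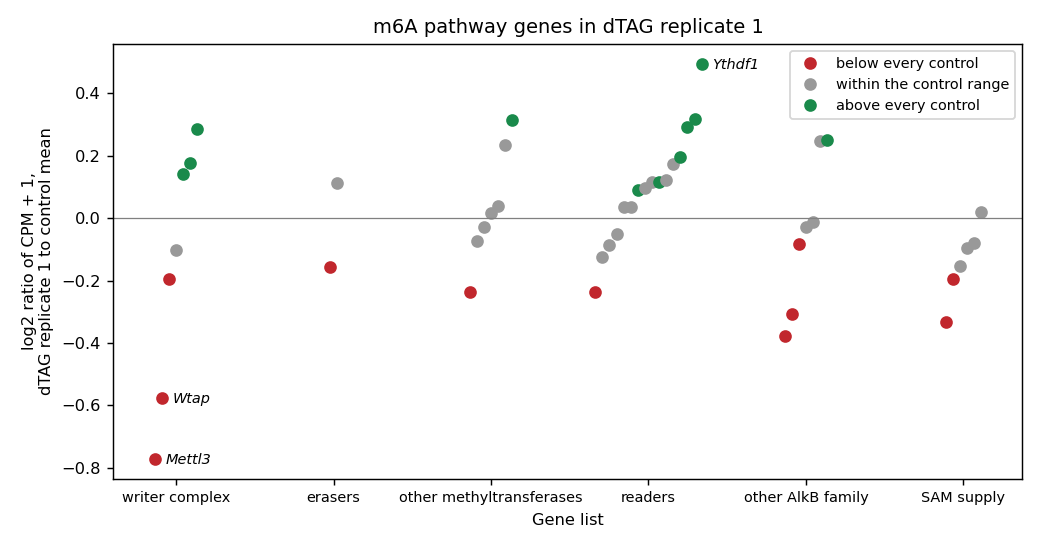
Log2 ratio of CPM + 1 in dTAG replicate 1 to the control mean for each gene of 6 m6A lists, coloured by whether the library lay below, within or above the 3 controls. Mettl3 (-0.77) and Wtap (-0.57) stand below the rest of the writer genes and of the other lists, and Ythdf1 (0.50) stands highest.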

How the data were processed

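RNA-seq of 3 dTAG and 3 control libraries was analysed. A table of 27179 rows was deposited, and it holds raw read counts, whole and not normalized. Per the labels' protocols, ERCC RNA was added, and both ribosomal RNA depletion and a stranded mRNA kit are named. The submitters' processing notes name STAR 2.7.2b, featureCounts, edgeR, limma and build mm10; roles and the strand setting are not given there. Groups and columns were matched by titles, and 903 rows without a symbol were left out (2.33%, 6.67% and 14.6% of counts in dTAG replicates 1, 2 and 3, and 2.20% to 2.37% in the controls).

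CPM use the counts in named rows. The limit that a count of 0 sets (3 counts) was 0.232, 1.41 and 1.66 CPM in dTAG replicates 1, 2 and 3 and 0.192 to 0.213 CPM in the controls; no member was at 0. Tests used the two-sided quasi-likelihood test of edgeR 4.0.16 under R 4.3.3 (TMM, filterByExpr with a minimum count of 10) with Benjamini-Hochberg adjustment over all genes tested, and all 9 members passed the filter. Each SE is the size of the fold change divided by the square root of the test's F statistic, since that test gives no SE of its own. The code was tested on simulated data. The simulated libraries shared the makeup of the controls and varied less than the real ones, so this checks the code and not its error rate here. Alternatives were RLE, library totals, other filters, DESeq2 1.42.0, a replicate block and leaving out each library.

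Genes named are the 9 members, the lists of related genes (the 2 most abundant of each, since none passed the 6-library test), neighbours of Wtap and the 5 genes most like it. For the last, names of Gm or LOC with digits and names ending in Rik were left out. Pcif1, Rbmx, Ythdf1, Cited2, Ube3c, Lars2, Col3a1 and Krt18 were named after their values were seen, and genes overlapping a member were named for their position. Members and lists were chosen with earlier results of these data known. Promoter windows and positions are RefSeq's, assembly GRCm38.p6, with windows for 8 of the 9 members.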

Additional observations from a re-analysis of the deposited data

How the results depend on the processing

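The number of genes called over the 6 libraries, 0 in the reported fit, was 1398 without a filter on low counts, 5196 with DESeq2 and 13 with a replicate block, and ran from 0 to 13222 when each library was left out, the highest without dTAG replicate 1. Members called over the 6 libraries ran from 0 to 5 when each library was left out, and were 0 under every other setting tried. Without dTAG replicate 1, 5 members were called; this was 0 with library totals and 0 with a replicate block, and ran from 0 to 8 when a further library was left out. Same-numbered libraries did not deviate together (r across genes of -0.03, -0.02 and -0.03), and differently numbered ones ran from -0.01 to 0.04. The dTAG libraries differ widely in makeup, so this check could miss a shared effect and does not decide pairing. The replicate numbers were not read as pairs. With library totals in place of TMM, the fold changes over 6 libraries were above 0 for Mettl3 (0.30), Mettl14 (0.16), Rbm15 (0.16), Rbm15b (0.59), Cbll1 (0.45), Alkbh5 (0.57) and Fto (0.17). The median of all genes was then 1.11, against 0.16 with TMM. Only the scale differed between these fits, and which scale suits these libraries was not tested. The log2 ratio of Wtap in dTAG replicate 1 was -0.66 with TMM and -0.65 with RLE scaling, and -0.60 to -0.55 without each control. The median of the 8 other genes in that library was -0.08 with TMM and -0.07 with RLE scaling, and ran from -0.03 to 0.06 without each control. The share of Wtap in dTAG replicate 1 was 84.7% with Virma among the writers and 81.3% over the 9 members. In dTAG replicates 2 and 3, with 38 to 322 and 79 to 390 counts for the 8 other genes, counting error limits the comparison.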
